A study of Homo sapiens with 6 samples.

Results

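The genes described here encode subunits of the transcription factor AP-1. FOS, FOSB, FOSL1, FOSL2, JUN, JUNB, JUND and ATF3 were taken from a table of gene counts by symbol, which gave 8 of its 58735 rows. All 8 were among the 15935 rows that passed the expression filter and were tested. RD cells, a human cell line from an embryonal rhabdomyosarcoma, had been transduced with lentivirus carrying either a scrambled shRNA (control cells, n = 3) or an shRNA against TAK1 (TAK1 knockdown cells, n = 3), and their RNA was sequenced in bulk. TAK1, encoded by MAP3K7, is a kinase that passes signals from cytokines and stress to the MAP kinases and NF-kB. Both shRNAs were carried by the same vector backbone, pLKO.1-mCherry-Puro. The comparison therefore rests on 1 cell line and 1 TAK1 shRNA. No source states whether the replicates were separate transductions, so p-values measure the spread between these samples, which may be technical. The count totals were 29125436, 31886885 and 31334733 in control replicates 1 to 3, and 28839898, 34469323 and 32710522 in knockdown replicates 1 to 3.

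AP-1 binds DNA as a dimer of basic leucine zipper proteins. JUN-type proteins pair with each other or with FOS-type proteins, whereas FOS-type proteins need a partner of another type. The dimers bind the AP-1 site, TGACTCA, and related motifs such as the cyclic AMP response element (CRE), TGACGTCA. ATF3, which belongs to the wider family, pairs with JUN-type proteins and is known as a stress-induced gene. FOS, FOSB, JUN and JUNB are classic immediate early genes, induced within minutes of a growth factor or stress signal, while JUND is abundant in resting cells too. TAK1 acts upstream of JNK, the kinase that phosphorylates JUN, and of p38.

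MAP3K7 itself was measured first, as a check of the labels. Levels are given in CPM, the usual unit of counts scaled to the library size, here after TMM normalization (the trimmed mean of M-values). MAP3K7 stood at 77.9, 76.5 and 77.6 CPM in control replicates 1 to 3 and at 30.5, 33.6 and 29.9 CPM in knockdown replicates 1 to 3. The groups were far apart, and the log2 fold change of knockdown against control cells was -1.30 (SE 0.062; edgeR's quasi-likelihood test, Benjamini-Hochberg adjusted p = 4.45e-14). The muscle identity of the cells was checked with 12 myogenic markers, of which 10 were tested. MYOD1 and MYOG, which drive myogenic differentiation, averaged 263 ± 8.03 (SD) and 141 ± 6.07 CPM in control cells, and MYF5 had 0 counts. The most abundant of the markers was CHRNA1 in control cells (921 ± 11.5 CPM, beside 658 ± 8.65 for ACTC1) and ACTC1 in knockdown cells (866 ± 36.1, beside 700.3 ± 2.33 for CHRNA1). The summed level of the 10 tested markers ranged from 2837 to 2861 CPM in control cells and from 2975 to 3143 CPM in knockdown cells. Among them 4 were called higher (40%, beside 11.8% of all genes tested) and 1 lower (10%, beside 11.3%), by the rule given with the AP-1 genes. These were MYOD1, MYOG, MYMK, ACTC1 and CHRNA1, a subset named after its values were seen. The log2 fold changes were 0.37 for MYOD1, 0.27 for MYOG, 0.98 for MYMK, 0.40 for ACTC1 and -0.40 for CHRNA1. With a correction for GC content, MYOD1 (0.24) and MYOG (0.22) missed the fold threshold, and MYOG also missed it without control replicate 1 (0.24) or knockdown replicate 1 (0.24). The part of muscle differentiation in the AP-1 values was not tested. None of 6 epithelial and none of 6 immune markers passed the filter, and of 5 endothelial markers TEK alone did, at 1.68 to 3.65 CPM.

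The FOS-type genes FOS, FOSL1 and FOSL2 and the JUN-type gene JUNB fell in TAK1 knockdown cells, whereas JUND, the most abundant AP-1 gene, rose. FOSB, JUN and ATF3 did not pass the test. A gene was called where its adjusted p was under 0.05 and its log2 fold change was 0.25 or more in either direction. By this rule 4 of the 8 genes were called lower, beside 11.3% of all genes tested, and 1 was called higher, beside 11.8%. The same 4 and 1 had CPM values that did not overlap between the groups, as did 22.2% of all genes tested in the lower and 21.6% in the higher direction. Over all genes, 1805 were called lower and 1879 higher, so that 51.0% of calls were higher. With library sizes alone as the scaling, 62.9% of calls were higher, and the 5 AP-1 calls kept their direction. In bulk RNA, fewer cells expressing a gene and less RNA per cell cannot be told apart.

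**Figure D1:**
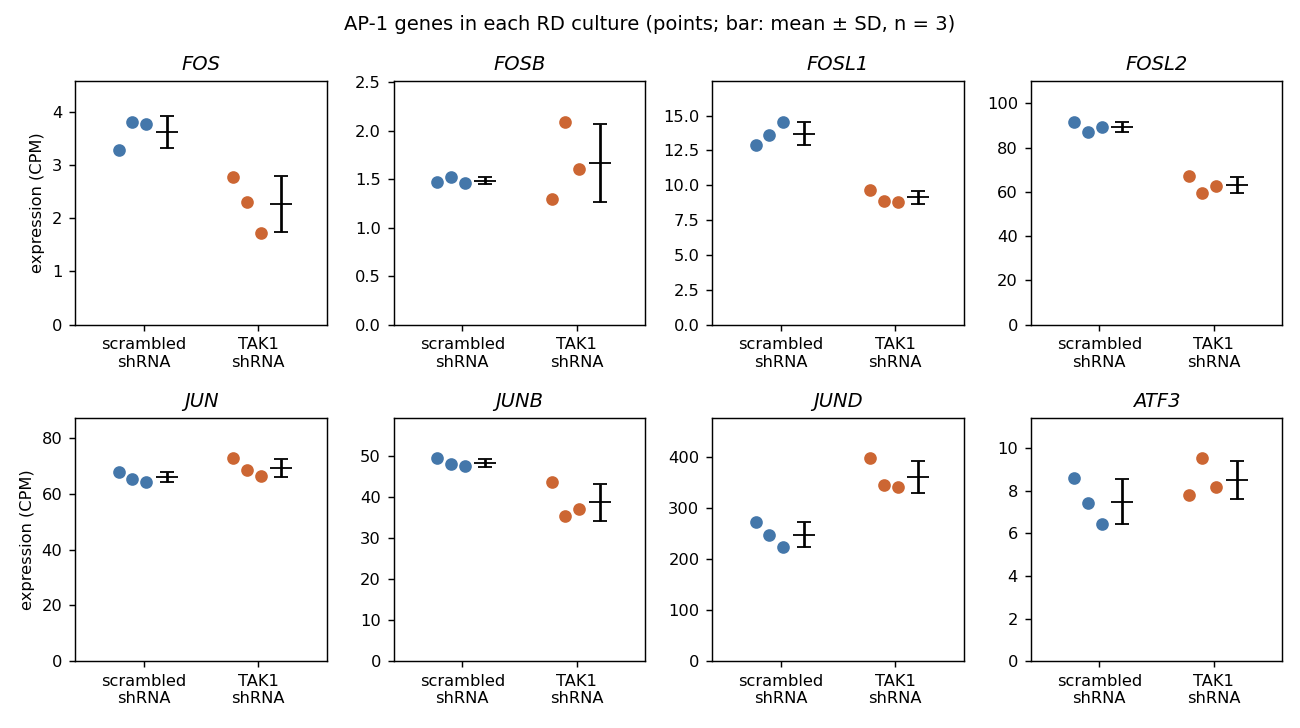
Expression of the 8 AP-1 genes in CPM in each culture of RD cells, with 1 point per culture and black marks for the mean and SD of 3 cultures. FOS, FOSL1, FOSL2 and JUNB are lower and JUND is higher in every knockdown culture than in any control culture, while the groups overlap for FOSB, JUN and ATF3.

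Of the FOS-type genes, FOSL2 had the highest count. FOSL2 (FRA-2) lies on chromosome 2 from 28392448 to 28417317 on the plus strand of GRCh38, and its longest GENCODE 44 transcript has 4 exons. It was measured at 91.8, 87.3 and 89.2 CPM in the control replicates and at 67.0, 59.6 and 62.7 CPM in the knockdown replicates. Every knockdown culture lay below every control culture. The log2 fold change was -0.50 (95% CI -0.62 to -0.39, adjusted p = 1.07e-07), a fall to 0.705 of the control level.

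FOSL1 (FRA-1), which is known to be induced through ERK signaling in many cancer cells, lies on chromosome 11 (65892049 to 65900573, minus strand). It was measured at 12.9, 13.6 and 14.6 CPM in control and at 9.68, 8.89 and 8.82 CPM in knockdown replicates 1 to 3. The groups did not overlap, and the spread within each was small beside the gap between them. The log2 fold change was -0.59 (95% CI -0.79 to -0.38, adjusted p = 5.13e-05). The gap between FOSL1 and FOSL2 within a culture, as the log2 ratio of their CPM, was -2.71 ± 0.11 in control and -2.79 ± 0.04 in knockdown cells. These ratios overlapped between the groups (difference -0.08, exact permutation p = 0.4).

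FOS (c-FOS; chromosome 14, 75278826 to 75282230, plus strand), the namesake of the FOS-type genes, was low throughout. It had 93, 120 and 116 counts in the control replicates, or 3.27, 3.81 and 3.76 CPM. In the knockdown replicates it had 81, 81 and 57 counts, or 2.77, 2.29 and 1.73 CPM. The highest knockdown culture was below the lowest control culture, but at these counts the interval was wide. The log2 fold change was -0.68 (95% CI -1.09 to -0.28, adjusted p = 0.0089). FOSB (chromosome 19, 45467995 to 45475179, plus strand), the closest relative of FOS, was lower still, at 1.48, 1.52 and 1.46 CPM in control and 1.30, 2.09 and 1.61 CPM in knockdown replicates. The knockdown cultures lay on both sides of the control cultures. Its log2 fold change was 0.17 (95% CI -0.36 to 0.71, adjusted p = 0.664), and without knockdown replicate 2 the estimate was -0.03. A change of FOSB of the size seen for FOS was thus outside its interval in the lower direction, while a rise of up to 0.71 was not.

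**Figure D2:**
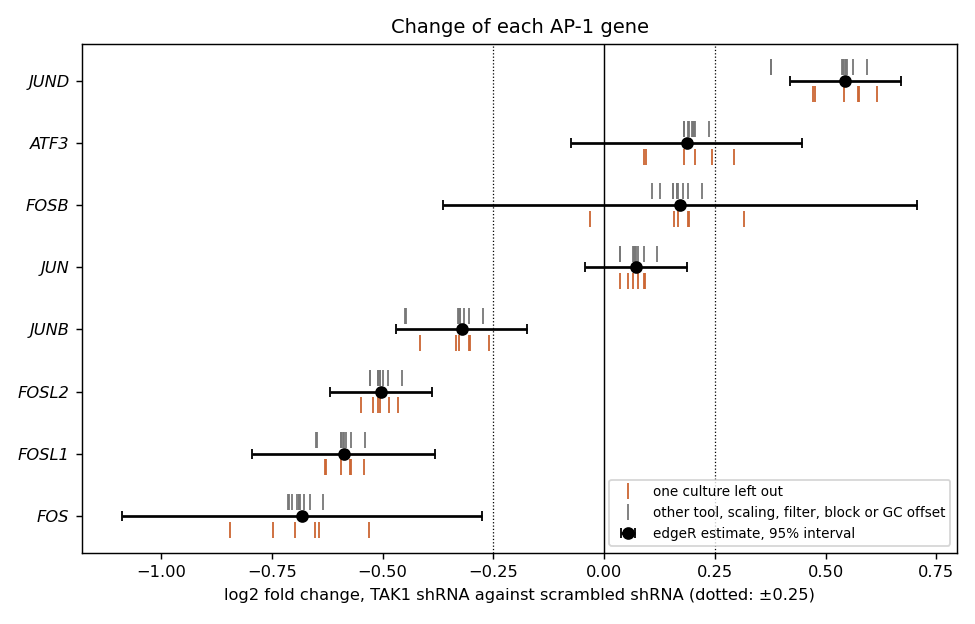
Log2 fold change of each AP-1 gene in TAK1 shRNA against scrambled shRNA cultures (black, with 95% interval), with the estimates from other processing (grey) and after leaving out each culture (orange). JUND lies above 0.25 and FOS, FOSL1, FOSL2 and JUNB lie below -0.25 under every setting drawn, while FOSB crosses 0 when knockdown replicate 2 is left out.

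The JUN-type genes went separate ways. JUN, JUNB and JUND each have 1 exon in their longest transcript. JUND (chromosome 19, 18279694 to 18281622, minus strand) was measured at 272, 247 and 224 CPM in control replicates 1 to 3 and at 397, 345 and 341 CPM in knockdown replicates 1 to 3. All 3 knockdown cultures exceeded the highest control culture, which is a gap larger than the spread within either group. The log2 fold change was 0.54 (95% CI 0.42 to 0.67, adjusted p = 1.29e-07), or 1.46 times the control level. Of the 15935 genes tested, 1214 had a higher log2 fold change.

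JUNB (chromosome 19, 12791486 to 12793315, plus strand), which often opposes the activity of JUN, was measured at 49.5, 48.1 and 47.6 CPM in control and 43.8, 35.4 and 37.1 CPM in knockdown replicates. Knockdown replicate 1 was the nearest to the control cultures and still below them. The log2 fold change was -0.32 (95% CI -0.47 to -0.17, adjusted p = 0.0010). Its exons share 259 bases with HOOK2 on the opposite strand. No source states whether reads were counted by strand, so reads from the shared bases cannot be told apart. HOOK2, named here for this overlap, averaged 22.6 ± 1.43 CPM in control and 26.9 ± 3.25 CPM in knockdown cells (log2 fold change 0.25), a call that held in 5 of 16 alternatives.

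JUN (c-JUN; chromosome 1, 58776845 to 58784048, minus strand), whose protein is the substrate that gives JNK its name, was measured at 67.7, 65.3 and 64.3 CPM in control and 72.6, 68.4 and 66.4 CPM in knockdown replicates. These values overlapped, with knockdown replicate 3 below control replicate 1. The log2 fold change was 0.07 (95% CI -0.04 to 0.19, adjusted p = 0.356), so the interval held no change as large as the fold threshold. The JUND to JUN ratio within a culture was 2.00, 1.92 and 1.80 on the log2 CPM scale in control and 2.45, 2.33 and 2.36 in knockdown replicates. It was higher in every knockdown culture, by 0.47 on average. The JUND to JUNB ratio was likewise higher in every knockdown culture, at 3.22 ± 0.06 against 2.35 ± 0.11. Each of these differences had an exact two-sided permutation p of 0.1, the smallest that 3 against 3 cultures allow, and 0.2 after adjustment over the 4 ratios computed. The fourth ratio, FOS to FOSL2, overlapped between the groups (exact permutation p = 0.5). The ratios were not among the planned tests. Those of JUND set a gene called higher against genes called lower or not called in the same cultures. They are therefore no independent support for those calls.

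ATF3 (chromosome 1, 212565334 to 212620777, plus strand) was measured at 8.58, 7.43 and 6.45 CPM in control and 7.80, 9.51 and 8.18 CPM in knockdown replicates. The groups overlapped, since control replicate 1 exceeded 2 of the knockdown cultures. Its log2 fold change was 0.19 (95% CI -0.07 to 0.45, adjusted p = 0.280), which leaves a rise past the fold threshold inside the interval. The estimate for ATF3 was 0.089 without control replicate 3 and 0.095 without knockdown replicate 2, and 0.29 without control replicate 1.

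Base composition differed among the 8 transcripts and was related to the fold changes of all genes. The median log2 fold change ran from -0.08 in the tenth of genes with the lowest GC content to 0.13 in the tenth with the highest, which holds JUNB (64.9% GC) and JUND (69.9% GC). With a GC correction, chosen after the data were seen, JUND had a log2 fold change of 0.38 and JUNB of -0.45. Both kept their calls, the rise of JUND being smaller and the fall of JUNB larger.

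**Figure D3:**
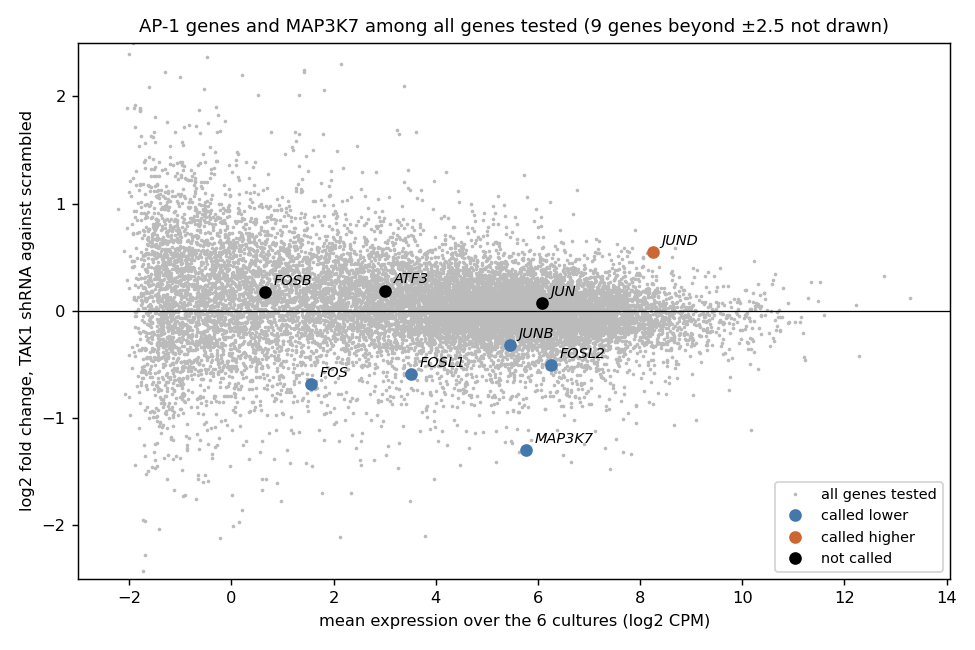
Log2 fold change of TAK1 shRNA against scrambled shRNA cultures plotted over mean expression (log2 CPM over 6 cultures) for all genes tested (grey; 9 genes beyond the plotted range are not drawn), with the AP-1 genes and MAP3K7 marked by call. JUND lies above most genes of its level, and FOS, FOSL1, FOSL2 and JUNB lie below 0.

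Levels of different genes were compared as CPM per kilobase (kb) of the longest transcript. In control cells JUND came first at 128 ± 12.5, followed by JUNB (26.4 ± 0.54), JUN (20.2 ± 0.55), FOSL2 (13.3 ± 0.33), FOSL1 (8.05 ± 0.49), ATF3 (3.56 ± 0.51), FOS (1.72 ± 0.14) and FOSB (0.39 ± 0.0088). No neighbours in this order overlapped in their control values. In knockdown cells the order was the same but for JUNB (21.2 ± 2.43) and JUN (21.2 ± 0.97), which could no longer be ordered. JUN exceeded JUNB in knockdown replicates 2 and 3 but not in replicate 1, and with the length of all merged exons JUNB came before JUN in knockdown cells too (21.2 and 19.1). With merged exons, ATF3 was at 1.87 and FOS at 1.13 per kb in control cells, so their levels depend on the length chosen, while their places in the order of means were the same. JUND stood at 187 ± 16.1, FOSL2 at 9.40 ± 0.56 and FOSL1 at 5.36 ± 0.28 per kb in knockdown cells.

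The composition of the AP-1 transcripts shifted toward JUND. Its share of the summed level of the 8 genes was 65.2%, 63.7% and 61.4% in the control replicates and 75.4%, 74.7% and 74.6% in the knockdown replicates. The FOS-type share was 10.7%, 11.5% and 12.7% in control and 6.35%, 6.58% and 6.64% in knockdown replicates. Neither share overlapped between the groups. The summed level of FOS-type genes was 23.5 ± 0.46 per kb in control and 16.3 ± 0.91 in knockdown cells, while that of JUN-type genes was 175 ± 13.6 and 230 ± 19.4. The ratio of JUN-type to FOS-type transcripts was therefore 7.46 ± 0.70 in control and 14.1 ± 0.40 in knockdown cells. Within the FOS-type genes FOSL2 kept about the same share, 56.8 ± 1.92% and 57.7 ± 1.43%, with overlapping cultures. These shares describe RNA and not protein.

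**Figure D4:**
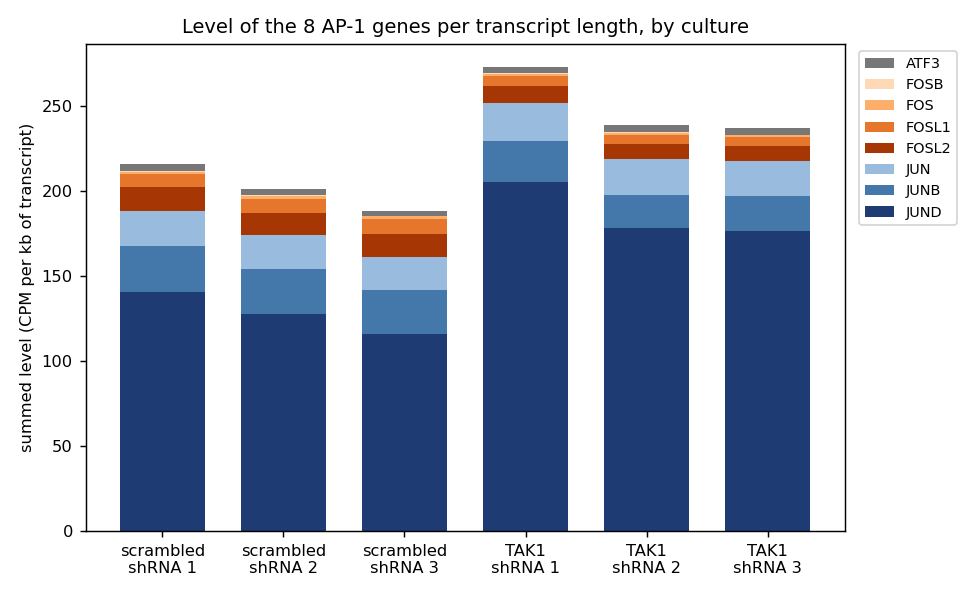
Summed level of the 8 AP-1 genes in each culture, in CPM per kilobase of the longest transcript, with JUN-type genes in blue, FOS-type genes in orange and ATF3 in grey. The JUND block rises from 116 to 141 in control cultures to 177 to 206 in knockdown cultures, and the orange blocks together are smaller in every knockdown culture (15.7 to 17.3, against 23.2 to 24.0).

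The promoter windows of the genes were read to see what they share. RefSeq (GRCh38.p14) gave 8 windows of 300 bases for 7 of the 8 genes (not FOSL1), with 250 bases before the start site and 50 from it. The windows of JUND (chr19:18281573-18281872, minus strand), FOSL2 (chr2:28392608-28392907, plus strand), FOS (chr14:75278578-75278877, plus strand) and JUN (chr1:58783998-58784297, minus strand) are shown 5′ to 3′, since they stand for the gene that rose, 2 that fell and 1 that did not pass the test. Capitals mark matches on either strand to the CRE (TGACGTCA) and its partial form (TGACGT), to a CRE with any base at its center (TGACNTCA), to the AP-1 site (TGACTCA) and to the TATA box (TATAAA). The partial and variant forms overlap the full CRE and were chosen after the sequences were seen.
JUND: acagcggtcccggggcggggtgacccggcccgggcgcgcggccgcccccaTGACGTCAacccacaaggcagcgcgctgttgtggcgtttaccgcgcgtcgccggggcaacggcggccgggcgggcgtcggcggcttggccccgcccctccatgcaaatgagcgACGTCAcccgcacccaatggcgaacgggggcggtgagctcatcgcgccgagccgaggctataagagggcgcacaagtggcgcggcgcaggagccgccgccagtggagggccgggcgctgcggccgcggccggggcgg
FOSL2: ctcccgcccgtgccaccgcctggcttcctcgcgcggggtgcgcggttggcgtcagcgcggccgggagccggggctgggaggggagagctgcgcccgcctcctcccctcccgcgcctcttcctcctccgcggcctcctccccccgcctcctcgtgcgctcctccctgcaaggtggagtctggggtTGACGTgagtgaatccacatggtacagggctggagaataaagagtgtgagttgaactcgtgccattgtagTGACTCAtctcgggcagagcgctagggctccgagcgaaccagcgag
FOS: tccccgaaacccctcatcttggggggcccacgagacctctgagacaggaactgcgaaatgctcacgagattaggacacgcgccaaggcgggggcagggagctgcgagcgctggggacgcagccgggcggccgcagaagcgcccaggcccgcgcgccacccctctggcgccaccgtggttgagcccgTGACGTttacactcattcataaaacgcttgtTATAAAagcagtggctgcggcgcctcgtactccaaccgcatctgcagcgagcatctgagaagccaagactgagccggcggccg
JUN: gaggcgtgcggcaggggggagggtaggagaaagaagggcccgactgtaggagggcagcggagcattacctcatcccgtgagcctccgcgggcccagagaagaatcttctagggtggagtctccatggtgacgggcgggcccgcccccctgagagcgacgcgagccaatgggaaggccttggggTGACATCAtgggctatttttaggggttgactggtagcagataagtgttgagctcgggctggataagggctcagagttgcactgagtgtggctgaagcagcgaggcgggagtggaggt
JUND held a full CRE starting at -200 and a second partial CRE at -87, read on the other strand. The full CRE was in 1.85% of 35116 promoter windows and the partial form in 7.98%. FOSL2 held an AP-1 site at 5, just past the start site, and a partial CRE at -66; 4.95% of all windows held an AP-1 site. FOS had a TATA box at -33 and a partial CRE at -64, and FOSB had the same pair at -30 and -60. The TATA box, found in 11.5% of windows, was also in JUNB at -31 and in the second ATF3 window at -230. JUN held the variant CRE TGACATCA at -67, and the first of 2 ATF3 windows held it at -123; TGACNTCA was in 7.72% of windows. No window held a CArG box, the motif of serum response factor, which 1.29% of all windows held. Sites more than 250 bases before the start site lie outside the windows and were not searched. The windows therefore cannot show whether these genes have a CArG box farther upstream. Genes with a partial or variant CRE thus included those that rose, fell and did not pass the test.

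Genes around AP-1 were described as lists, by their counts and medians. Over all genes tested, 11.3% were called lower and 11.8% higher, and the median log2 fold change was 0.02. Among other basic leucine zipper genes that can pair with AP-1 proteins, 11 of 13 were tested, with 2 lower, 2 higher and a median of -0.05. MAF, a large Maf protein, fell from 113 ± 3.30 to 61.4 ± 1.65 CPM (log2 fold change -0.88), and the small Maf gene MAFF fell from 9.34 ± 1.17 to 5.21 ± 1.27 CPM (-0.85). The relatives of ATF2 in the list, ATF7 (0.26) and CREB5 (0.28), were called higher by a small margin. ATF7 lost its call with no expression filter (0.25) and without control replicate 1 (0.25) or 3 (0.20) or knockdown replicate 1 (0.24), and CREB5 without knockdown replicate 3 (0.22).

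Of 21 genes of the kinase cascades upstream of AP-1, 20 were tested, with 4 lower, 4 higher and a median of -0.04. The list holds MAP3K7, the target of the shRNA, so 1 of the 4 lower genes was fixed by the design and 3 others were lower. MAP2K1, which encodes the ERK kinase MEK1, fell from 728 ± 5.61 to 360 ± 7.32 CPM (log2 fold change -1.02, adjusted p = 1.94e-15). MAP2K1 was lower in every knockdown culture than in any control culture. MAPK11 (-0.48), a p38 kinase, was also lower. MAP2K5 (0.55) of the ERK5 branch and the JNK kinases MAP2K7 (0.39) and MAP2K4 (0.28) were higher, as was MAPK12 (0.28). MAPK12 was named after its values were seen. MAP2K4 missed the fold threshold without knockdown replicate 2 (0.23) or 3 (0.24), and MAPK11 missed the adjusted p without control replicate 2 (-0.47) or 3 (-0.42). MAPK12 missed the fold threshold without knockdown replicate 1 (0.23) or 2 (0.21) and with the GC correction (0.15). The JNK genes MAPK8 and MAPK9 were lower in every knockdown culture than in any control culture, as were 22.2% of all genes tested. Their log2 fold changes of -0.24 and -0.16 did not reach the threshold, and both were named after their values were seen.

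All 14 listed factors that bind FOS and JUN promoters were tested, of which 4 were lower and 0 higher, with a median of -0.08. The CREB relatives ATF1 (27.6 ± 2.39 to 18.9 ± 1.85 CPM, log2 fold change -0.55) and CREM (-0.53) fell, as did the ternary complex factor ELK3 (-0.45). MRTFB (-0.27), a cofactor of serum response factor, was named after its values were seen and missed the threshold without control replicate 3 (-0.20) or knockdown replicate 1 (-0.24), with library sizes alone (-0.22) and with the GC correction (-0.23). SRF itself, at 72.4 ± 2.65 and 71.1 ± 6.85 CPM, did not pass the test. Of 10 genes for turnover of AP-1 mRNA and protein, 2 were lower and 2 higher, with a median of -0.08. HNRNPD (-0.31), which binds AU-rich mRNA, and the ubiquitin ligase ITCH (-0.27), which targets JUN proteins, were lower. Both missed the fold threshold with the GC correction (-0.20 and -0.19), and ITCH also with library sizes alone (-0.22) and without knockdown replicate 1 (-0.25). FBXW7 (0.25), a ligase for phosphorylated JUN, and DET1 (1.25) were higher. DET1 had 97 counts over the 6 cultures, and without knockdown replicate 3 its log2 fold change was 0.79 and not called. DET1 was likewise not called without control replicate 2 (1.29) or 3 (0.95), nor FBXW7 without control replicate 2 (0.22) or knockdown replicate 2 (0.20) or 3 (0.23). With DESeq2 or no expression filter both calls were lost as well, DET1 lost its call with voom, and FBXW7 lost its own with DESeq2 size factors in edgeR.

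Of 28 genes known as AP-1 targets, 20 were tested, with 10 lower (50%, beside 11.3% of all genes tested), 1 higher (5%, beside 11.8%) and a median of -0.35. The chemokine gene CCL2 was measured at 20.7, 22.8 and 23.5 CPM in control and 5.95, 4.84 and 4.91 CPM in knockdown replicates (log2 fold change -2.10, adjusted p = 1.20e-13). PLAU (-1.34), which encodes the plasminogen activator urokinase, also fell. The single higher gene was MT2A (0.31), a metallothionein. The collagenase and stromelysin genes MMP1, MMP3, MMP9, MMP10 and MMP13 had 13 counts or fewer over the 6 cultures and were not tested. Many of these genes have other regulators too, and the part of AP-1 in their levels was not tested.

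Of 18 other immediate early genes, all tested, 8 were lower (44.4%, beside 11.3% of all genes tested) and 1 higher (5.56%, beside 11.8%), with a median of -0.59. EGR1 was measured at 71.1, 68.9 and 71.8 CPM in control and 30.3, 25.3 and 29.3 CPM in knockdown replicates (log2 fold change -1.32, adjusted p = 1.71e-13). ARC (-1.70) and KLF4 (-1.14) fell as well, and BTG2, an antiproliferative gene, rose (0.68). DUSP1 stands in this list and among the AP-1 targets, and ZFP36 here and in the turnover list; neither passed the test. Of the integrated stress response genes, for which ATF3 is a known target, 11 of 12 were tested, with 1 lower (STC2, -0.32), 1 higher (DDIT4, 0.48) and a median of -0.04. The response's factor ATF4 averaged 293 ± 8.39 and 275 ± 11.6 CPM, a difference that did not pass the test. Heat shock genes, which can rise with culture handling, had 7 of 9 tested, with 2 lower (HSPH1, -0.70, and BAG3, -0.65), 0 higher and a median of -0.18. The summed level of the heat shock genes was 3694 to 3798 CPM in control and 3107 to 3349 CPM in knockdown cultures. Most of this sum came from HSPA8 and HSP90AA1, named after their values were seen. HSPA8 averaged 1721 CPM in control and 1517 in knockdown cells, and HSP90AA1 averaged 1424 and 1225. Neither was called, so the sum says little about the other genes of the list.

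**Figure D5:**
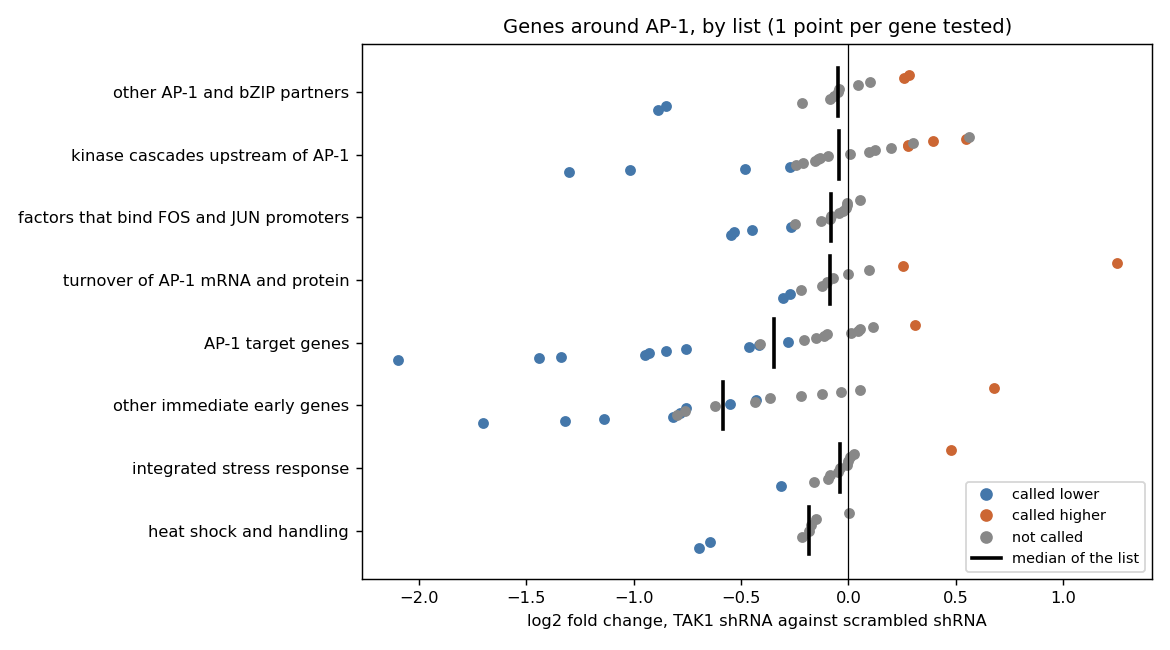
Log2 fold change of each gene tested in 8 lists of genes around AP-1, with 1 point per gene, colored by call, and a black bar at the median of each list. The medians of AP-1 targets (-0.35) and other immediate early genes (-0.59) lie lowest.

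The genes with the pattern most like each AP-1 gene were sought among the 13477 genes that averaged 1 CPM or more, by Pearson's r of log2 CPM over the 6 cultures. Both groups enter, so the group difference is part of the likeness, and r is given as a description. The 3 nearest genes were GATA2, ZBTB7A and MDGA1 for JUND, with log2 fold changes of 0.50, 0.41 and 1.44. They were EHD4, CDK2AP2 and PSMB2 for FOSL2, and LAPTM5, LGALS3 and HNRNPL for FOSL1. For JUNB they were TUBA1B, CD276 and TK1, and for FOS they were ALG8, DCTN3 and INF2. The 3 genes nearest to a called AP-1 gene all had a log2 fold change of its sign, which follows from their choice by likeness over the same cultures. For the genes that did not pass the test the nearest were C11orf68, LY6E and ATP6AP1 (JUN), MARK1, RBMXL1 and LINC00839 (FOSB), and RETSAT, AC006946.2 and PPP1R15B (ATF3). All 24 values of r lay between 0.985 and 0.999.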

How the data were processed

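RNA from RD cells expressing scrambled or TAK1 shRNA was sequenced, and the authors deposited raw counts of reads per gene symbol, without normalization, after base calling with CASAVA, removal of adaptor and low-quality reads and STAR alignment to GRCh38. The counting program, annotation release, strand setting and treatment of reads with several matches are not given in the sources used here. Samples were grouped by their labels. Group differences were tested in edgeR 4.0.16 (R 4.3.3) by its quasi-likelihood test after the default expression filter and TMM, with p-values adjusted by Benjamini-Hochberg across 15935 genes. Standard errors were taken as the log2 fold change over the root of F. DESeq2 1.42.0, limma 3.58.1 (voom), other scalings, filters and fold thresholds, a replicate block and leaving out each culture were alternatives; a GC correction was added after the data were seen. The edgeR test was checked on simulated data. Replicates within a group differed by more than counting noise (chi-square per degree of freedom 2.88 to 8.60), and the common biological coefficient of variation was 5.67%. GENCODE 44 gave lengths, exons and GC content (87.0% of tested genes matched). Two-sided exact permutation tests enumerated all splits of the 6 cultures. The AP-1 members and all lists were chosen with earlier results of these data known. Named genes are the AP-1 members, MAP3K7, up to 3 called genes per list and direction with the largest fold change, and the 3 genes most like each member; others are stated as chosen after their values were seen. Some listed genes are counted but not reported by name here. No test was made over a list.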

Additional observations from a re-analysis of the deposited data

How the results depend on the processing

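The 5 AP-1 calls were kept, and the 3 other AP-1 genes were not called, under all 16 alternatives at the fold threshold of 0.25. FOSB without TAK1 shRNA replicate 1 (0.32) and ATF3 without scrambled shRNA replicate 1 (0.29) passed that fold but not the adjusted p; the lowest estimate for ATF3 with 1 culture left out was 0.089. With 1 culture left out, the log2 fold change of FOS ranged from -0.84 to -0.53 (highest adjusted p 0.048), JUNB from -0.42 to -0.26 and JUND from 0.47 to 0.62. At a fold threshold of 0.5, JUNB was no longer counted, which left 3 lower and 1 higher. FOSB reversed without TAK1 shRNA replicate 2; its estimates with 1 culture left out ran from -0.031 to 0.32, and the cause was not tested. MARK1 (-0.022 to 0.13), RBMXL1 (-0.012 to 0.10) and LINC00839 (-0.031 to 0.15) also reversed there, which follows from their choice by likeness to FOSB over the same cultures.

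Genes called lower numbered 680 at a fold threshold of 0.5 and 2734 with no fold threshold, against 1805, and genes called higher numbered 735 at 0.5, against 1879. With merged exon lengths, the share of JUND was 65.4% in control and 76.6% in knockdown cells.

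Same-numbered cultures did not deviate together (correlations 0.037, 0.036 and 0.016), so the numbers were not taken as pairs, although 5 of 6 cultures matched their own number best. With a replicate block 1848 genes were called lower and 1942 higher, and the 5 AP-1 calls were kept; DET1 lost its call.

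Counts in several short lists also depended on the setting. At 0.25 the turnover list had 0 to 2 lower and 0 to 2 higher genes over the alternatives, and the other partners 1 to 2 higher. At 0.5 the kinase list had 2 lower and 1 higher gene, against 4 and 4 (8 lower with no fold threshold). Each lower count of this list includes MAP3K7, the shRNA target. The promoter-binding factors had 2 lower, against 4, and the turnover list 0 lower and 1 higher, against 2 and 2. The other partners had 0 higher, against 2. The single higher AP-1 target and both stress response calls were lost at 0.5. With no fold threshold heat shock genes had 5 lower, against 2, and stress response genes 2 lower, against 1. Counts limit FOS, FOSB and ATF3 most, and their intervals are the widest among the 8 genes. DET1 could not be tested with a minimum of 10 counts in every culture. A tally over all alternatives took in the other values of the genes named by rule and the list counts. In it 1041 comparisons were unchanged, which means that a gene kept its direction and side of the threshold or a list count stayed within 1.5 times. In 30 comparisons a gene lost its call, and in 12 a gene gained one. A further 31 list counts moved by over 1.5 times or to 0. HOOK2 and the genes named after their values were seen are outside this tally. The calls they lost are given with their values.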

Other observations

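Further basic leucine zipper genes that pair with small Maf proteins, and the C/EBP genes, were looked at after the results above were seen. Of 10 such genes 9 were tested, with 2 called lower and 0 higher, where 11.3% and 11.8% of all genes tested were. NFE2L1, a factor for proteasome and redox genes, was measured at 322, 307 and 308 CPM in control and 167, 165 and 177 CPM in knockdown replicates. It was lower in all 3 knockdown cultures, with a log2 fold change of -0.88 (SE 0.046, adjusted p = 2.32e-13). BACH1, a repressor of antioxidant genes, was measured at 106, 101 and 104 CPM in control and 64.1, 65.3 and 66.4 CPM in knockdown replicates, again with no overlap (-0.67, SE 0.051, adjusted p = 2.28e-10). Both kept their calls in all 16 alternatives. BACH2, a relative of BACH1, at 1.60 ± 0.24 and 2.26 ± 0.22 CPM, did not pass the test (0.51, SE 0.23). NFE2L2, the antioxidant regulator also known as NRF2, averaged 79.8 ± 1.57 and 72.5 ± 2.40 CPM, with a log2 fold change of -0.14 that did not reach the fold threshold. CEBPB (0.19), CEBPD (0.18) and CEBPG (-0.06) were likewise not called. Over the 16 alternatives CEBPB ranged from 0.06 to 0.26 and was called in 1, while CEBPD (0.04 to 0.23) and CEBPG (-0.08 to 0.02) were called in 0.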
